A study of Mus with 12 samples.

Results

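Glycolysis splits glucose into pyruvate, and several of its steps can be run by alternative enzymes encoded by different genes, called isozymes. Blood cells differ in the isozymes they use. Neutrophils and monocytes are known for the glucose transporter Slc2a3, hexokinase Hk3 and the muscle-type pyruvate kinase Pkm, while mature red cells, which have no mitochondria, live on glycolysis and are known for Hk1 and the liver and red cell pyruvate kinase Pklr. The genes described here were 10 isozyme and regulator genes of the pathway picked by symbol: Slc2a3, Hk1, Hk2, Hk3, Pfkfb3, Pfkfb4, Pkm, Pklr, Ldha and Eno1. All 10 were found among the 25247 genes of the whole blood table.

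Female BALB/c mice, 6 weeks old when purchased, gave the whole blood RNA. The study had 6 mice in each of 4 groups, and each group has 3 libraries. Which mice were sequenced, and whether a library came from 1 mouse, is not stated in the sources used here. Each library is taken as 1 mouse below. The Solvent group received only the vehicle, acetone and olive oil mixed 3 to 1, on the skin. The DNCB group was sensitised with 1% and challenged with 0.5% 2,4-dinitrochlorobenzene, a skin sensitiser used to raise an atopic dermatitis-like inflammation. The scMSC and scivMSC groups received the same DNCB together with human umbilical cord mesenchymal stem cells (MSC), 2000000 cells per dose, given as 100 µL under the skin in scMSC, and as 50 µL under the skin and 50 µL into the tail vein in scivMSC. No group received MSC without DNCB, and no group received an injection without cells. Blood was taken on day 30.

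Estimated counts summed to between 5.22e+07 and 6.51e+07 per library, and haemoglobin genes took 91.3% to 95.6% of summed FPKM, the fragments per kilobase of gene, relative to the size of the library. A level below is an FPKM value, which can be compared between genes. A difference is a log2 fold change from edgeR's quasi-likelihood test on the counts, scaled by library totals and adjusted over 5527 tested genes. Calls required a fold change over 2 and an adjusted p under 0.05. The median tested gene had a log2 fold change of 0.06 between DNCB and Solvent, -0.63 between scMSC and DNCB and -1.53 between scivMSC and DNCB. Under trimmed mean (TMM) scaling, which assumes that most genes do not change, these medians were -0.09, 0.06 and 0.04. Whole blood is a mixture, so fewer cells of a type and less RNA per cell cannot be told apart in any value given here.

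Of the 10 genes, 8 passed the filter of FPKM of at least 1 in at least 3 libraries. Hk2 and Pklr did not. Pfkfb3 passed with 4 libraries, all 3 from DNCB and 1 from scivMSC, so its level in the DNCB group decided whether it was tested.

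In blood of DNCB mice, the myeloid hexokinase gene Hk3, the phosphofructokinase-2 gene Pfkfb4 and Pkm stood far above their Solvent levels, and in both MSC groups their FPKM lay near the Solvent levels. Versus Solvent, none of these 3 was called in either MSC group on total counts or under TMM. The sign depended on the scaling for all 3 in scivMSC and for Pkm in scMSC. With the size factors of DESeq2, another scaling, and with its Wald test, Pkm was called higher in scivMSC. The Wald test also called Hk3 higher in scMSC. Hk1 lay at about the same FPKM in all groups, although it was called higher in scivMSC under TMM. Pklr, the pyruvate kinase gene of red cells, was at the detection floor in every library, although erythroid marker genes were abundant as a sum. Eno1 and Ldha, for 2 late steps of the pathway, were lower in scivMSC than in Solvent on the scale of total counts. On that scale 59.2% of all tested genes were called lower there, and Ldha fell about as much as the median gene. Neither was called under TMM.

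**Figure D1:**
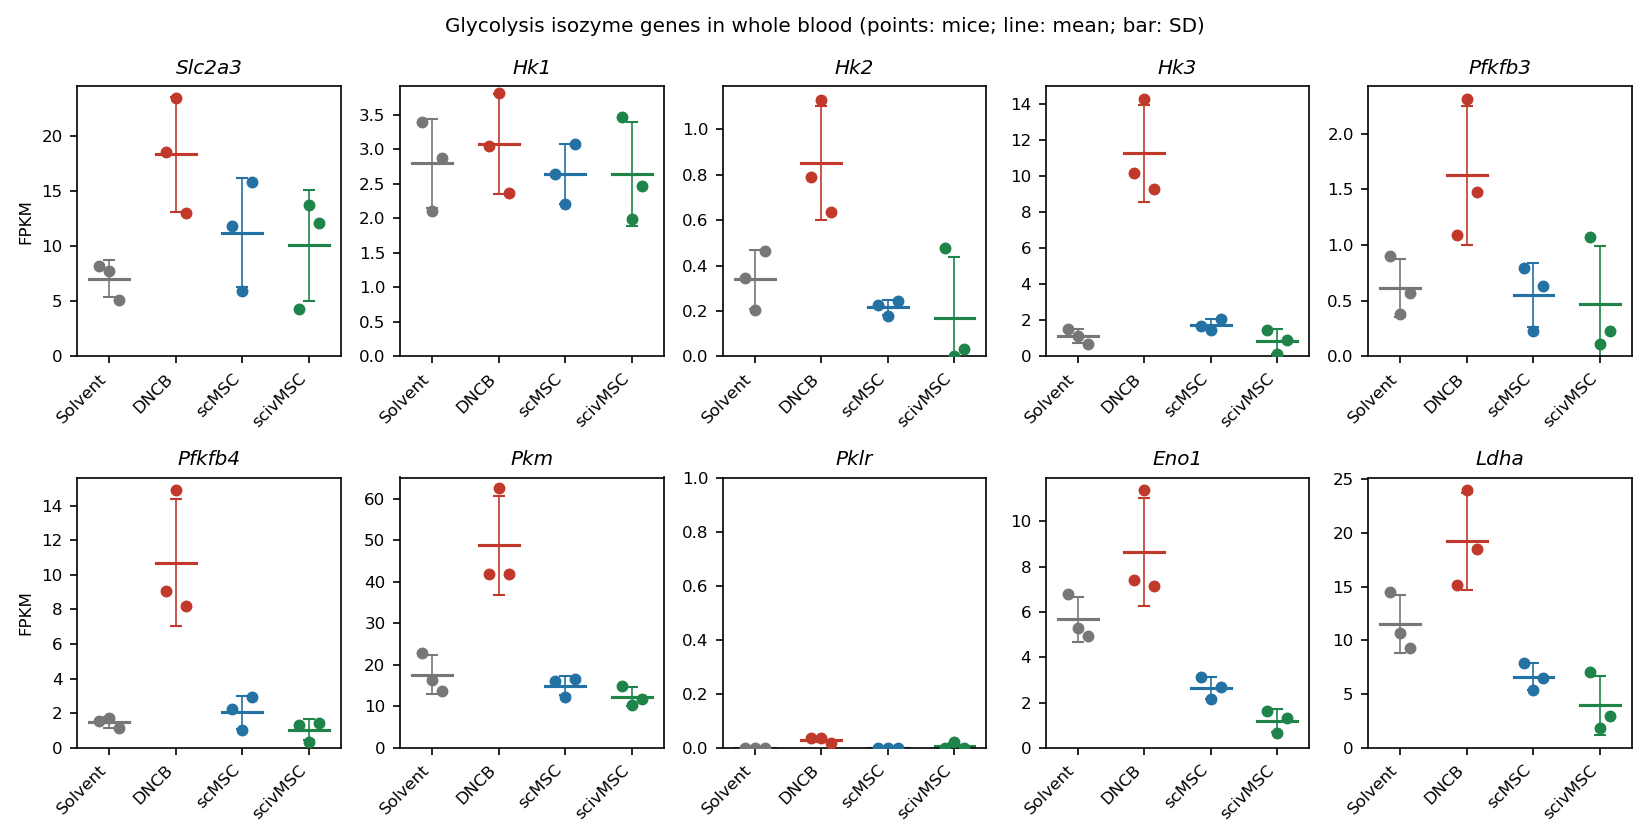
FPKM of the 10 glycolysis genes in each of the 12 blood libraries, 1 panel per gene with its own axis from 0. Points are mice, horizontal lines are group means and bars are SD (n = 3). Hk3, Pfkfb4 and Pkm are highest in the 3 DNCB mice, Hk1 is level over the groups on this scale but not under TMM, and Pklr lies on the axis.

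Slc2a3 encodes the high-affinity glucose transporter GLUT3. It lies on chromosome 6 (122727809 to 122779957, minus strand, as deposited). Its FPKM was 8.25, 7.80 and 5.13 in the Solvent mice and 18.6, 23.5 and 13 in the DNCB mice. It was 11.9, 5.99 and 15.9 in scMSC and 4.35, 13.8 and 12.1 in scivMSC. Every DNCB mouse was above every Solvent mouse, whereas both MSC groups overlapped the DNCB and the Solvent range. Slc2a3 rose in DNCB versus Solvent by a log2 fold change of 1.38 (adjusted p = 0.0227, SE 0.41). The call was lost under TMM (1.20, adjusted p = 0.0728) and without Solvent replicate 2 or 3 or DNCB replicate 1 or 2, where adjusted p ranged from 0.0507 to 0.0997. Against DNCB it had log2 fold changes of -0.72 (adjusted p = 0.193, SE 0.40) in scMSC and -0.87 (adjusted p = 0.0654, SE 0.40) in scivMSC, neither called. The value in scivMSC had the opposite sign under TMM, at 1.04 (adjusted p = 0.0987). Without scivMSC replicate 2 it was -1.16 and called (adjusted p = 0.0201), and without DNCB replicate 3 it was -1.07 (adjusted p = 0.0426). Against Solvent, scivMSC differed by 0.51 on total counts (adjusted p = 0.269) and by 2.24 under TMM (adjusted p = 0.00308). In the scivMSC group, replicate 1 at 4.35 stood apart from the other two mice.

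Hexokinases trap glucose in the cell by phosphorylating it, the first step of the pathway. Hk1 is the housekeeping form and the form of red cells, Hk2 is an inducible form, and Hk3 is expressed in myeloid cells. Hk1 lies on chromosome 10 (62268855 to 62379908), Hk2 on chromosome 6 (82725025 to 82774454) and Hk3 on chromosome 13 (55005985 to 55021385), all on the minus strand.

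Hk3 had an FPKM of 1.51, 1.15 and 0.702 in Solvent and 10.2, 14.3 and 9.29 in DNCB. It had 1.70, 1.47 and 2.07 in scMSC and 1.48, 0.127 and 0.902 in scivMSC. The lowest DNCB mouse was above the highest mouse of any other group. Hk3 rose in DNCB by a log2 fold change of 3.32 (adjusted p = 6.88e-04, SE 0.59), from a mean of 1.12 ± 0.406 (n = 3, SD) to 11.3 ± 2.65 (n = 3, SD). It fell by 2.69 in scMSC (adjusted p = 0.00285, SE 0.57) and fell by 3.75 in scivMSC (adjusted p = 7.02e-05, SE 0.60) versus DNCB. These 3 calls were kept under TMM, at 3.19, -1.99 and -2.33, and without any single library, the value in scivMSC reaching -4.44 without scivMSC replicate 1.

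Hk1 had 3.40, 2.11 and 2.88 in Solvent, 3.05, 3.82 and 2.36 in DNCB, 2.64, 2.21 and 3.08 in scMSC and 3.47, 1.99 and 2.47 in scivMSC. All 4 groups overlapped, with group means from 2.64 to 3.07. Its log2 fold changes were 0.14 (adjusted p = 0.809, SE 0.31) in DNCB versus Solvent, -0.23 (adjusted p = 0.598, SE 0.31) in scMSC versus DNCB and -0.22 (adjusted p = 0.539, SE 0.31) in scivMSC versus DNCB. The value for scivMSC depended on the scaling. Under TMM, which sets the median of all genes near 0, Hk1 was called higher in scivMSC, by 1.41 versus DNCB (adjusted p = 6.07e-05) and by 1.36 versus Solvent (adjusted p = 1.09e-04). An antisense gene, Hk1os, overlaps Hk1. Whether counting used strand is not given in the sources used here, and without it their reads cannot be told apart. Hk1os had at most 81 counts per library, versus 949 to 2069 for Hk1.

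Hk2 was low throughout, with an FPKM of 0.347, 0.205 and 0.465 in Solvent, 0.789, 1.13 and 0.636 in DNCB, 0.228, 0.180 and 0.243 in scMSC and 0.479, 0 and 0.0331 in scivMSC. The DNCB mice were above all others. In a fit without the filter on low values it differed by 1.33 in DNCB versus Solvent (adjusted p = 0.443, SE 0.75) and by -1.98 in scMSC versus DNCB (adjusted p = 0.161, SE 0.76), and it was called in scivMSC versus DNCB, at -2.31 (adjusted p = 0.0235, SE 0.77).

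The makeup of the hexokinase transcripts turned over between the groups. Hk3 held 28.8%, 33.1% and 17.4% of the summed FPKM of Hk1, Hk2 and Hk3 in the Solvent mice, and 72.7%, 74.2% and 75.6% in the DNCB mice. It held 37.3%, 38.2% and 38.5% in scMSC, and 27.3%, 6.02% and 26.5% in scivMSC. Hk1 held the largest share in every mouse outside the DNCB group, from 57.0% to 94.0%, and 19.2% to 21.7% in DNCB mice. The sum itself was 4.26 ± 0.917 (n = 3, SD) FPKM in Solvent, 15.2 ± 3.60 (n = 3, SD) in DNCB, 4.61 ± 0.768 (n = 3, SD) in scMSC and 3.65 ± 1.67 (n = 3, SD) in scivMSC.

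**Figure D2:**
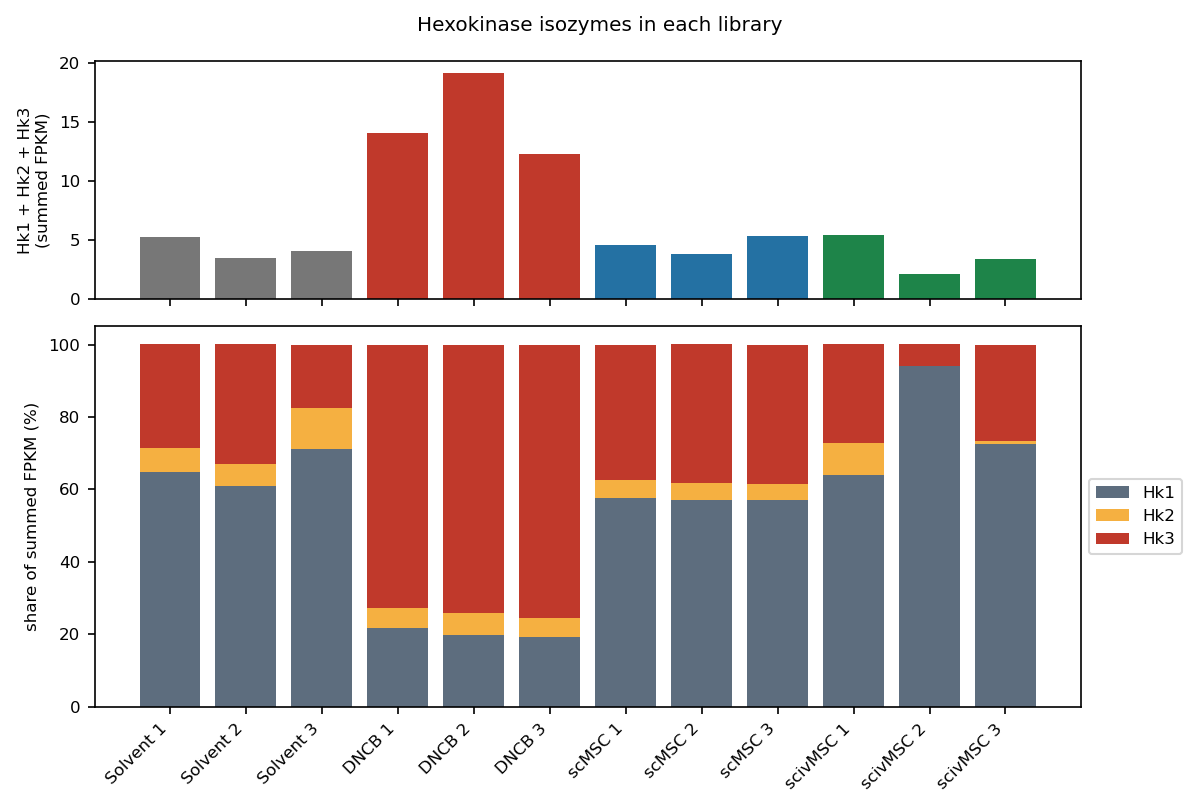
Hexokinase transcripts in each library. The upper bars give the summed FPKM of Hk1, Hk2 and Hk3, coloured by group, and the lower stacked bars give each isozyme's percent of that sum. Hk3 takes over 70% in the 3 DNCB mice and under 40% in the other 9.

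A ratio within a library depends on how libraries are scaled only through the pseudocount, which matters where a gene is near 0. The log2 ratio of Hk3 to Hk1, each as FPKM + 0.1, was -1.28 ± 0.55 (n = 3, SD) in Solvent, 1.84 ± 0.11 (n = 3, SD) in DNCB, -0.57 ± 0.03 (n = 3, SD) in scMSC and -1.91 ± 1.12 (n = 3, SD) in scivMSC. The groups differed in an exact permutation test of the group labels, with 369600 arrangements (p = 0.00208, adjusted p = 0.00955 over 6 ratios). Between DNCB and each of the other groups the ratio did not overlap, at 8.70-fold versus Solvent, 5.31-fold versus scMSC and 13.5-fold versus scivMSC (8.62-fold without scivMSC replicate 2, where Hk3 had 27 counts), each at the smallest two-sided p that exact permutation of 3 versus 3 mice allows, 0.1. The ratio of Hk2 to Hk1 was 2.00-fold higher in DNCB than in Solvent (exact permutation p over the 4 groups 0.00513, adjusted p = 0.0103). Hk2 was at or near 0 FPKM in scivMSC replicates 2 and 3, so their ratios were set largely by the pseudocount. The group result rested in part on single libraries, since the adjusted p was 0.0590 without DNCB replicate 2 and 0.0503 without DNCB replicate 3 in the exact permutation test.

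Phosphofructokinase-2 enzymes make and break down fructose 2,6-bisphosphate, the strongest activator of the committed step of glycolysis. Pfkfb3 is the form with the strongest bias towards making it, and Pfkfb4 is best known from testis, tumours and low oxygen. Pfkfb4 (chromosome 9, 108991778 to 109032228, plus strand) had an FPKM of 1.54, 1.75 and 1.13 in Solvent and 9.04, 14.9 and 8.20 in DNCB. It had 2.24, 1.04 and 2.93 in scMSC and 1.31, 0.355 and 1.46 in scivMSC. As for Hk3, the DNCB mice lay above all others without overlap. Pfkfb4 rose in DNCB by 2.86 (adjusted p = 5.72e-04, SE 0.50) and fell versus DNCB by 2.38 in scMSC (adjusted p = 0.00231, SE 0.49) and fell by 3.35 in scivMSC (adjusted p = 4.16e-05, SE 0.51). Under TMM the values were 2.65, -1.69 and -1.79, all called.

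Pfkfb3 (chromosome 2, 11471433 to 11554077, minus strand) had an FPKM of 0.899, 0.381 and 0.566 in Solvent, 1.09, 2.31 and 1.48 in DNCB, 0.790, 0.230 and 0.632 in scMSC and 1.07, 0.111 and 0.228 in scivMSC. The DNCB mice were again the highest, but scivMSC replicate 1, at 1.07, was next to the lowest of them, at 1.09. The log2 fold change was 1.40 in DNCB versus Solvent (adjusted p = 0.148, SE 0.66), -1.57 in scMSC versus DNCB (adjusted p = 0.0871, SE 0.66) and -1.80 in scivMSC versus DNCB (adjusted p = 0.0255, SE 0.67). The last was called, but not without DNCB replicate 2 (-1.45, adjusted p = 0.0973), scivMSC replicate 3 (-1.47, adjusted p = 0.0929) or scivMSC replicate 2 (-1.33, adjusted p at the threshold), nor under TMM (-0.45, adjusted p = 0.444). Without scivMSC replicate 1 it was -3.25 (adjusted p = 9.71e-05). The first 2 were called without scivMSC replicate 1 (adjusted p = 0.0307 and 0.0137) and without scivMSC replicate 2 (adjusted p = 0.0382 and 0.0172). Pfkfb4 was above Pfkfb3 in all 12 libraries. The log2 ratio of Pfkfb3 to Pfkfb4 was -1.18 ± 0.66 (n = 3, SD) in Solvent, -2.66 ± 0.27 (n = 3, SD) in DNCB, -1.74 ± 0.33 (n = 3, SD) in scMSC and -1.21 ± 0.99 (n = 3, SD) in scivMSC, and an exact permutation test did not separate the groups (adjusted p = 0.0771), though it did with a pseudocount of 1 (adjusted p = 0.00896).

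Enolase makes phosphoenolpyruvate, and Eno1 is the form found in most tissues. Eno1 (chromosome 4, 150236721 to 150248879, plus strand) had an FPKM of 6.79, 5.31 and 4.93 in Solvent, 7.40, 11.4 and 7.14 in DNCB, 3.12, 2.14 and 2.69 in scMSC and 1.65, 0.637 and 1.33 in scivMSC. Neighbouring groups in this order (DNCB, Solvent, scMSC, scivMSC) did not overlap. Against DNCB it fell by 1.72 in scMSC (adjusted p = 0.00247, SE 0.36) and fell by 2.84 in scivMSC (adjusted p = 1.39e-05, SE 0.37), and both calls were kept under TMM, at -1.01 and -1.26. In DNCB versus Solvent its log2 fold change was 0.61 (adjusted p = 0.237, SE 0.35), not called.

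Eno1 was also below Solvent in the MSC groups. It fell by 2.23 in scivMSC (adjusted p = 2.07e-04, SE 0.36), more than the median over all tested genes of -1.47, and under TMM it was at -0.83 (adjusted p = 0.00131), past the p threshold but short of a 2-fold change. In scMSC it was at -1.11 (adjusted p = 0.104, SE 0.35) and became called without scivMSC replicate 1 (adjusted p = 0.0427) or replicate 2 (adjusted p = 0.0248). Eno1 shares reads with a near-identical copy, Eno1b, so the split of reads between them is uncertain. Eno1b had an FPKM of 7.87 ± 1.66 (n = 3, SD) in Solvent, 13.2 ± 3.93 (n = 3, SD) in DNCB, 3.88 ± 1.03 (n = 3, SD) in scMSC and 1.10 ± 0.244 (n = 3, SD) in scivMSC, the same order of groups. With the counts of both genes summed, an alternative chosen after seeing the data, each of the 6 comparisons of Eno1 kept its direction and its side of the threshold.

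Pyruvate kinase makes pyruvate and ATP in the last step of glycolysis. Pkm (chromosome 9, 59656368 to 59679375, plus strand) encodes both the M1 and the M2 form, which a table of genes does not separate. It was the most abundant of the 10 genes in 10 of 12 libraries, with an FPKM of 22.8, 16.3 and 13.7 in Solvent, 41.9, 62.5 and 42.0 in DNCB, 16.0, 12.3 and 16.6 in scMSC and 14.9, 10.4 and 11.7 in scivMSC. The DNCB mice lay above all others, and the other groups overlapped in part. Pkm rose in DNCB by 1.47 (adjusted p = 8.45e-04, SE 0.27) and fell versus DNCB by 1.71 in scMSC (adjusted p = 3.75e-04, SE 0.27) and fell by 1.99 in scivMSC (adjusted p = 1.89e-05, SE 0.27). Under TMM the first 2 calls were kept, at 1.32 and -1.01, and the third was lost, at -0.32 (adjusted p = 0.154). On total counts Pkm fell by 0.46 more than the median of all genes in scivMSC.

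Pklr (chromosome 3, 89136142 to 89146594, plus strand) was listed with 8, 8 and 4 counts in the DNCB mice, 4 in scivMSC replicate 2 and 0 in the other 8 libraries. Low counts in the table are often multiples of 4, so the floor was set at 12 counts per library, 3 fragments of 4 counts. Pklr was at or under it in all 12 libraries, a floor of 0.0504 to 0.0629 FPKM, and no fold change is given for it. Pkm was at least 168-fold above that floor in every library. A count of 0 here limits the abundance of transcripts in blood RNA and covers counting error only. The erythroid markers fixed for this check were not low, since 13 of 14 were in the table, their summed FPKM was 4522 to 5813 over all libraries and none was at 0 in any whole group. The name of the group, which holds a red cell isozyme beside the myeloid forms, therefore had no support from Pklr in these libraries. The log2 ratio of Pkm to Pklr (adjusted p = 0.00955 in the exact permutation test) followed Pkm alone, with Pklr at the pseudocount.

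Lactate dehydrogenase A regenerates the oxidised cofactor that glycolysis needs by turning pyruvate into lactate. Ldha (chromosome 7, 46841475 to 46855627, plus strand) had an FPKM of 14.5, 10.7 and 9.30 in Solvent, 15.1, 24.0 and 18.5 in DNCB, 7.93, 5.39 and 6.53 in scMSC and 7.04, 1.87 and 2.96 in scivMSC. Every mouse of both MSC groups was below every Solvent and DNCB mouse. Ldha was not called in DNCB versus Solvent, at 0.74 (adjusted p = 0.205, SE 0.40), and fell versus DNCB by 1.55 in scMSC (adjusted p = 0.00917, SE 0.40) and fell by 2.28 in scivMSC (adjusted p = 1.91e-04, SE 0.41). Under TMM these falls were -0.86 (adjusted p = 0.00604) and -0.81 (adjusted p = 0.00461), past the p threshold but under 2-fold. Without scMSC replicate 2 the first was at -1.42 (adjusted p = 0.0549). Against Solvent it fell in scivMSC by 1.54 (adjusted p = 0.00372, SE 0.40), about as much as the median of all genes, and was at -0.22 under TMM (adjusted p = 0.384). Without scivMSC replicate 1, the highest of its group, Ldha was at -2.99 versus DNCB and -2.25 versus Solvent.

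In DNCB versus Solvent 4 of the 8 tested genes were called higher and none lower, namely Hk3, Pfkfb4, Pkm and Slc2a3. Of all tested genes, 15.6% were called higher in this comparison. Under TMM 4 were also called higher, with Pfkfb3 in place of Slc2a3, where 16.1% of all genes were. The median of the 8 log2 fold changes was 1.39, versus 0.06 over all tested genes. Because Pfkfb3 was tested through its DNCB level, these counts are a description of the genes that passed the filter.

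In scMSC versus DNCB 5 of 8 were called, all lower (Hk3, Pfkfb4, Eno1, Pkm and Ldha), where 24.9% of all tested genes were called lower. Under TMM 4 were called lower, all of these but Ldha, where 12.3% of all genes were. In scivMSC versus DNCB 6 of 8 were called lower, the same 5 with Pfkfb3, where 62.0% of all tested genes were called lower, so calls were common among all genes. Under TMM 3 were called lower (Hk3, Pfkfb4 and Eno1), where 18.9% of all genes were, and Hk1 was called higher, where 20.6% were. The medians of the 8 log2 fold changes were -1.64 in scMSC and -2.13 in scivMSC on total counts, and -0.96 and -0.63 under TMM. The comparisons of both MSC groups use the same DNCB libraries. Since Pfkfb3 was tested through its DNCB level, these counts and medians too only describe the genes that passed the filter.

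**Figure D3:**
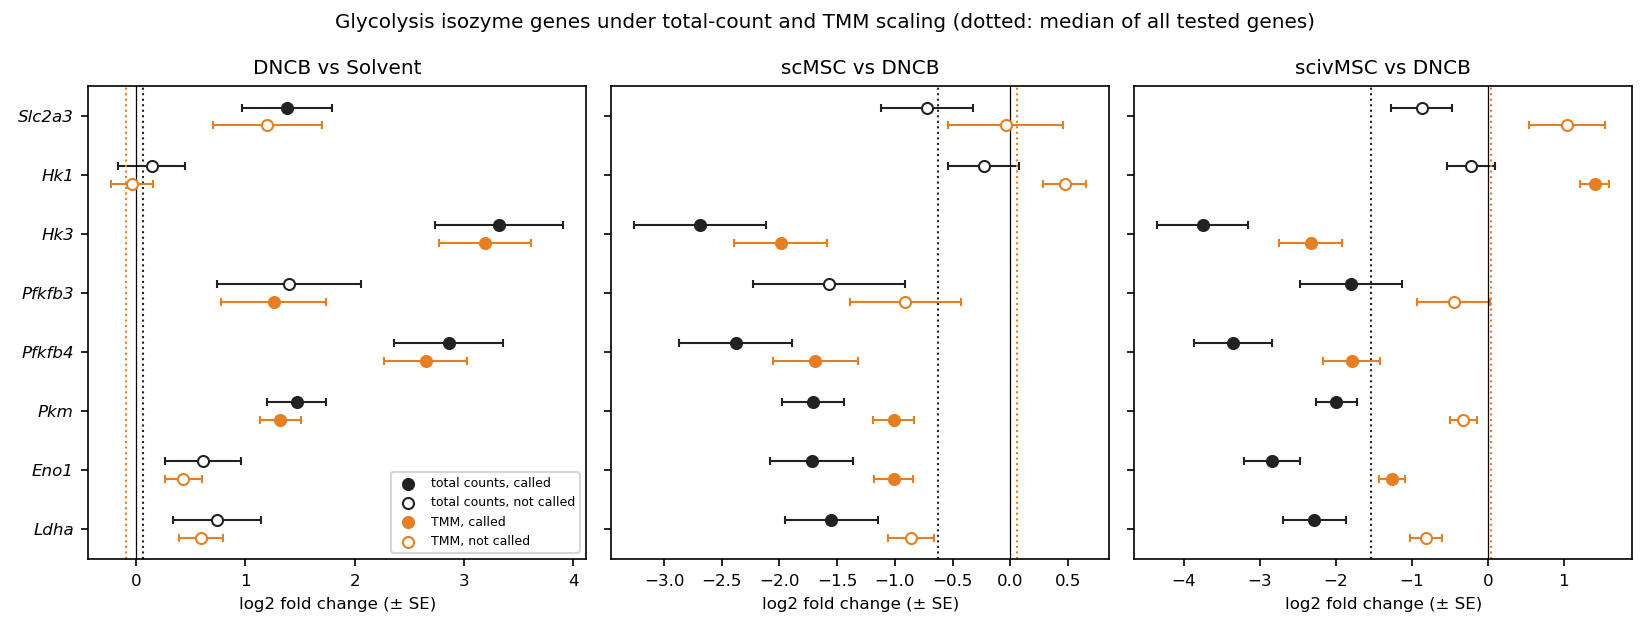
Log2 fold changes (points) with SE (bars) of the 8 tested genes in 3 comparisons, scaled by total counts (black) or by TMM (orange). Filled points were called, and dotted lines mark the median of all tested genes. Hk3 and Pfkfb4 are called in all 3 panels under both scalings, while Hk1 and Slc2a3 in scivMSC lie on opposite sides of 0 under the 2 scalings.

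The direct comparison of the injection routes called 1 of the 8 genes. Eno1 was lower in scivMSC than in scMSC by a log2 fold change of -1.12 (adjusted p = 0.0274, SE 0.35), where 30.4% of all tested genes were called lower and the median was -0.87. Against Solvent, none of the 8 was called in scMSC, where 0.651% of all tested genes were called. By edgeR, 1 of the 8, Eno1, had an unadjusted p under 0.05 there (0.00580), and DESeq2's Wald test called Hk3 alone, higher in scMSC. In scivMSC versus Solvent, Eno1 and Ldha were called lower, where 59.2% of all genes were. Under TMM neither was called, and Hk1 and Slc2a3 were called higher, where 22.4% of all genes were. Hk3, Pfkfb4 and Pkm were at -0.42, -0.49 and -0.52 in scivMSC versus Solvent on total counts, and at 0.86 (adjusted p = 0.0857), 0.86 (adjusted p = 0.0648) and 1.00 (adjusted p = 6.67e-04, not over 2-fold) under TMM. In scMSC versus Solvent they were at 0.63, 0.48 and -0.24 on total counts, and at 1.20 (adjusted p = 0.0592), 0.96 (adjusted p = 0.0948) and 0.30 (adjusted p = 0.288) under TMM.

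The ratios of Slc2a3 to Slc2a1 and of Ldha to Ldhb compare isozymes that differ in tissue and affinity. Slc2a1 encodes GLUT1, a widely expressed glucose transporter, and Ldhb encodes the heart-type lactate dehydrogenase subunit. Slc2a3 exceeded Slc2a1 in all 12 libraries. The log2 ratio was 2.12 ± 0.36 (n = 3, SD) in Solvent, 2.31 ± 0.57 (n = 3, SD) in DNCB, 3.57 ± 0.74 (n = 3, SD) in scMSC and 4.66 ± 1.62 (n = 3, SD) in scivMSC (exact permutation test over groups, adjusted p = 0.0496). Both MSC groups lay above Solvent without overlap, at 2.73-fold for scMSC and 5.82-fold for scivMSC (11-fold without scivMSC replicate 1 and 3.86-fold without scivMSC replicate 2), with an exact permutation p of 0.1 each. The log2 ratio of Ldha to Ldhb was 3.46 ± 0.64 (n = 3, SD) in Solvent, 4.84 in DNCB and 4.23 in scMSC as means. The scMSC mean includes replicate 2, at 4.71, where Ldhb had 11 counts, under the floor of 12 counts. Ldhb had 11, 0 and 0 counts in the scivMSC mice, at or under the floor of 12 counts, so their ratios were set by the pseudocount and no value is given for the group. The test over all groups (exact permutation test, adjusted p = 0.0496) includes them. Both ratios were at the threshold and lost it in 11 and 10 of the 12 tests that left out a library, up to an adjusted p of 0.101 without Solvent replicate 1.

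**Figure D4:**
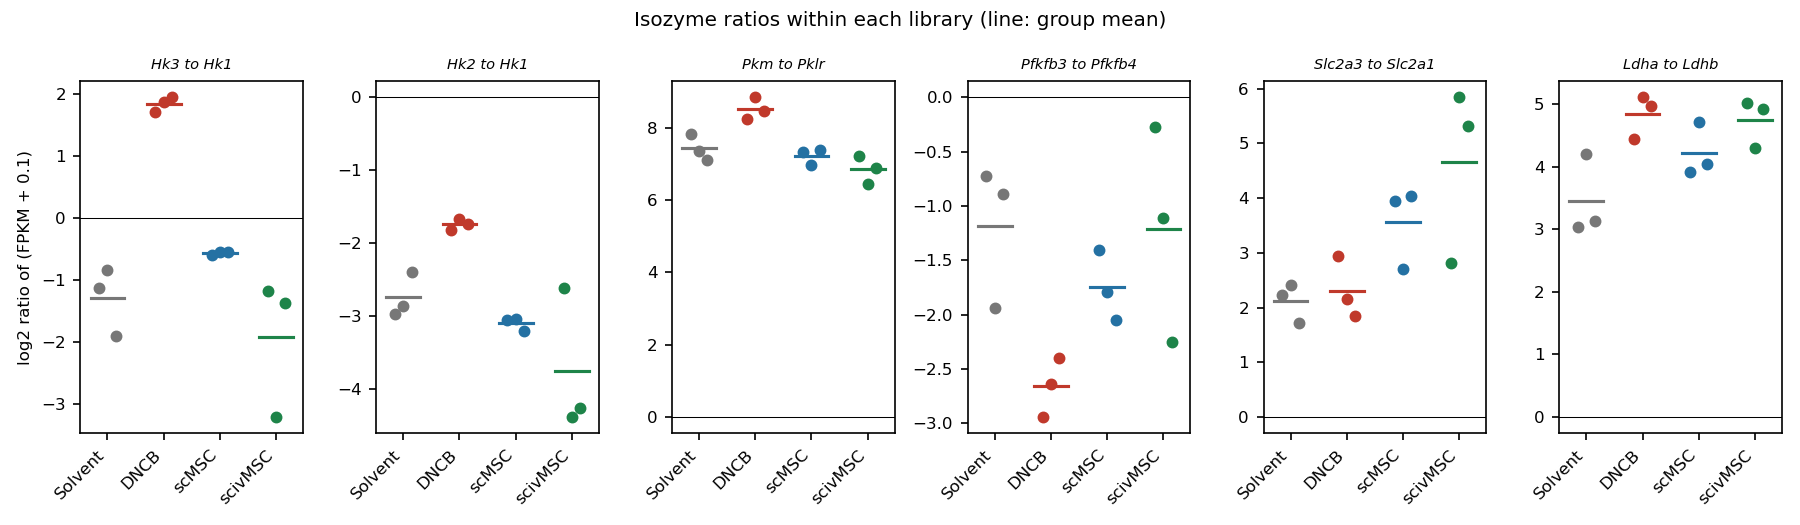
Log2 ratios of 6 pairs of isozymes within each library, as (FPKM + 0.1) over (FPKM + 0.1), with points for mice and lines for group means. Hk3 to Hk1 is above 0 in the 3 DNCB mice and below 0 in the other 9, and Pkm to Pklr is far above 0 in all 12.

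Among 30 other genes of the pathway, fixed as a list, 29 were in the table and 13 passed the filter. Gapdh, like Pfkfb3, was tested through its DNCB level, having reached an FPKM of 1 in the 3 DNCB libraries alone. In DNCB versus Solvent 5 of the 13 were called, all higher, led by Slc16a3 and Slc2a6, where 15.6% of all tested genes were called higher. Slc16a3 encodes MCT4, which exports lactate, and rose from an FPKM of 1.11 ± 0.305 (n = 3, SD) to 10.0 ± 2.08 (n = 3, SD), a log2 fold change of 3.18 (adjusted p = 3.44e-04, SE 0.52). Slc2a6, a sugar transporter of leukocytes, rose by 2.72 (adjusted p = 3.92e-04, SE 0.45). The other 3 were Gpi1, Aldoa and Pgk1, which encode enzymes of the middle of the pathway.

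In scMSC versus DNCB 9 of the 13 were called lower and none higher, where 24.9% of all tested genes were called lower, and in scivMSC versus DNCB 10 were called lower and none higher, where 62.0% were. Gapdh is among both. Slc16a3 fell by 3.13 in scMSC and fell by 4.23 in scivMSC, while Slc2a6 fell by 2.74 and fell by 4.04. Under TMM 7 were called higher in DNCB versus Solvent (16.1% of all genes) and 7 lower in scMSC versus DNCB (12.3%), Gapdh again in both, and in scivMSC versus DNCB 6 were called lower (18.9%) and 3 higher (20.6%). The 3 were Bpgm, Tpi1 and Slc16a1. Bpgm encodes the enzyme that makes 2,3-bisphosphoglycerate in red cells, and its FPKM was 614 ± 74.2 (n = 3, SD) in Solvent, 474 ± 98.1 (n = 3, SD) in DNCB, 493 ± 86.1 (n = 3, SD) in scMSC and 660 ± 68.4 (n = 3, SD) in scivMSC, far above any of the 10 genes. In scivMSC versus scMSC 2 were called lower, Slc2a1 at -1.41 (adjusted p = 0.0332) and Slc2a6 at -1.31 (adjusted p = 0.0344), where 30.4% of all genes were called lower. Against Solvent edgeR called none in scMSC, where 2 of the 13, Eno3 and Hif1a, had an unadjusted p under 0.05, and 7 were called lower in scivMSC, a share no larger than the 59.2% of all tested genes, the largest falls being in the muscle enolase Eno3, at -2.72 (adjusted p = 7.16e-04), and in Slc2a1, at -2.36 (adjusted p = 6.92e-04, and -3.11 without scivMSC replicate 1). Under TMM 3 were called higher in scivMSC versus scMSC (13.1% of all genes), and 2 higher (22.4%) and 1 lower (13.4%) in scivMSC versus Solvent.

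**Figure D5:**
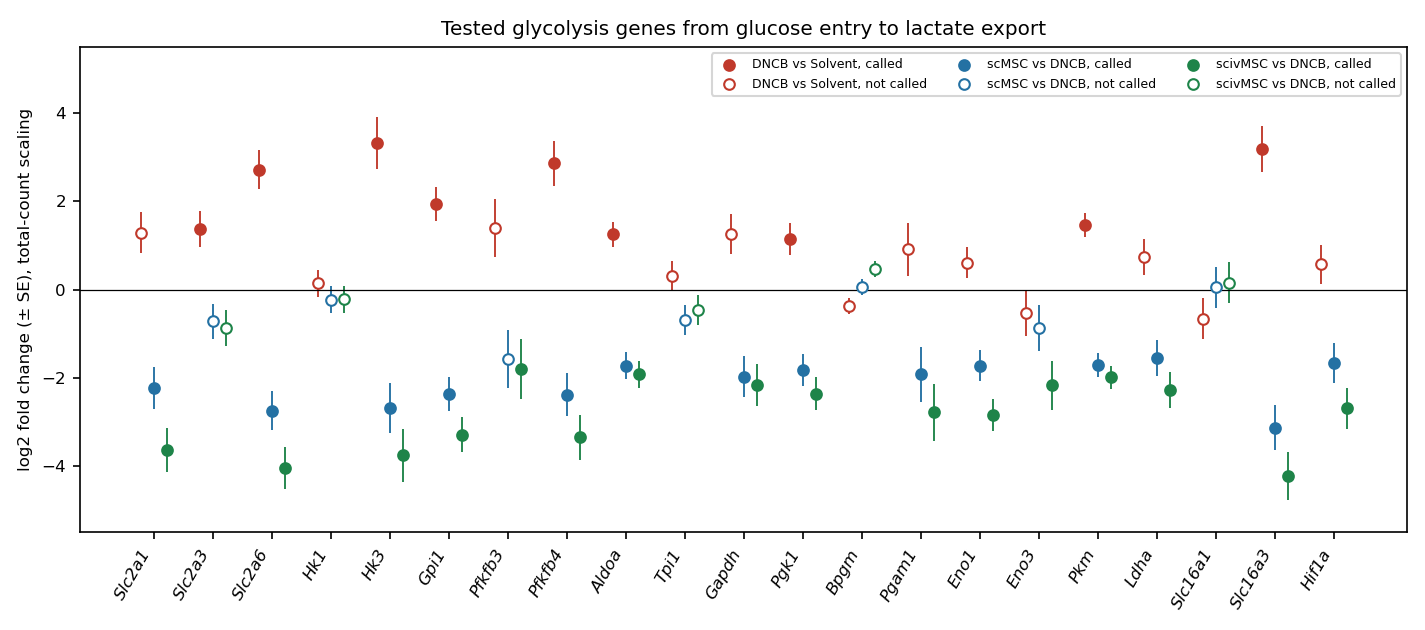
Log2 fold changes (points, total-count scaling) with SE (bars) of the 21 tested glycolysis genes, ordered roughly from glucose entry to lactate export with the regulator Hif1a last. Filled points were called. Hk1, Tpi1, Bpgm and Slc16a1 stay uncalled in all 3 comparisons on this scale, though all 4 were called higher in scivMSC under TMM, while Slc2a6, Hk3, Gpi1, Pfkfb4, Aldoa, Pgk1, Pkm and Slc16a3 are called in all 3.

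Markers of the blood cell types did not all move alike. The summed FPKM of neutrophil and monocyte markers was highest in DNCB, as for Hk3, Pfkfb4 and Pkm. The median sum of platelet markers was also higher in DNCB than in Solvent, but it was higher still in both MSC groups. The other marker lists moved otherwise. The 12 neutrophil markers summed to 219 to 444 FPKM in Solvent, 6723 to 10582 in DNCB, 554 to 701 in scMSC and 227 to 683 in scivMSC, all 12 were called higher in DNCB and all 12 lower in both MSC groups versus DNCB, and none was at 0 in a whole group. The 10 monocyte markers, of which 6 were tested, summed to 59.9 to 183 in Solvent, 407 to 659 in DNCB, 85.6 to 94.0 in scMSC and 80.6 to 112 in scivMSC. Of the 6, 3 were called higher in DNCB, and 4 in scMSC and 5 in scivMSC were called lower versus DNCB. The shares of all tested genes were 15.6%, 24.9% and 62.0%. Under TMM all 12 neutrophil markers kept their calls. Of the 6 monocyte markers, 3 were then called higher in DNCB and 4 lower in scMSC versus DNCB. In scivMSC versus DNCB 2 were called lower and 1, F13a1, higher. The shares of all genes under TMM were 16.1%, 12.3%, 18.9% and 20.6% in this order. The 10 T cell markers summed to 124 to 218 in Solvent, 51.4 to 66.9 in DNCB, 56.5 to 88.7 in scMSC and 17.2 to 39.8 in scivMSC, and 9 of them were called lower in DNCB versus Solvent. The 8 B cell markers summed to 43.2 to 139, 12.1 to 34.1, 13.1 to 18.5 and 3.39 to 8.06 in the same order, and all 7 tested were called lower in DNCB versus Solvent. Of all 5527 tested genes, 269 were called lower there. Under TMM 635 were, among them the same 9 T cell and 7 B cell markers. The 9 platelet markers summed to 373 to 592 in Solvent, 592 to 804 in DNCB, 706 to 908 in scMSC and 728 to 846 in scivMSC. In DNCB versus Solvent 5 of them were called higher on total counts and 4 under TMM, where 15.6% and 16.1% of all genes were. No T cell, B cell or platelet marker was at 0 in a whole group. Of the 9 tested erythroid markers, Bpgm among them, 1 was called higher in scivMSC versus DNCB and versus Solvent on total counts and all 9 were under TMM. Of the 9 platelet markers, 0 and 6 were called higher in these comparisons on total counts, and 8 and 9 under TMM. Hk1 was called higher in both comparisons under TMM. On total counts 79 and 143 of all 5527 tested genes were called higher. Of all tested genes, 20.6% and 22.4% were called higher under TMM in these comparisons. The part of the blood cell types in the changes of the glycolysis genes was not tested.

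The genes with the pattern most like that of a member were found by the mean absolute difference, over the 12 libraries, of log2(FPKM + 1) centred on each gene's mean, among 4993 tested genes. Nearest to Hk3 were Pi16 (0.0750), Pilra (0.0921), a receptor of myeloid cells, and Tlr13 (0.106), an endosomal receptor for bacterial RNA. Their group mean FPKM rose from 1.03, 1.03 and 1.33 in Solvent to 9.83, 9.98 and 11.4 in DNCB. Nearest to Hk1 were Ppp6r1 (0.0877), Dctn2 (0.0911) and Mast2 (0.0953). Near to Pkm were Bin3 (0.0987) and Aldoa (0.1), the aldolase of the same pathway. Among the members themselves the closest were Ldha and Eno1 (0.155) and Hk3 and Pfkfb4 (0.214), and the farthest were Hk1 and Hk3 (0.880).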

How the data were processed

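The deposited blood table holds 25247 genes, each with the authors' estimated count and FPKM value in all 12 libraries. The submitters' processing notes name HISAT2 2.0, StringTie 1.3.0, Bowtie 0.12.2 and the build mm8 without roles. The annotation and the use of strand are not given in the sources used here. Coordinates are those of the deposited table and were not converted. All 10 genes lie on the same chromosomes as in RefSeq's GRCm38.p6 table, 4 of them with an identical start, so the coordinates may not be those of mm8.

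The members, gene lists and tests were chosen with earlier results of these data known. The deposited estimated counts were tested with edgeR 4.0.16 (quasi-likelihood, all 12 libraries, 4 group means, scaling by totals) in R 4.3.3. Genes that reached an FPKM of 1 in 3 or more libraries were tested and p-values were adjusted by Benjamini-Hochberg. The labels do not say how libraries of a group were separated beyond their numbers. The study describes 6 mice per group without saying which of them gave a library. Named genes were the 10 members, the 2 largest called changes in each direction per comparison among the other pathway genes, the 3 nearest genes by pattern (of which 1 is not reported here) and marker genes. For a symbol with several identifiers the most abundant was used. Hk1, Hk2, Hk3, Pfkfb3, Pklr and Pkm overlap other genes in the table. Alternatives were TMM, DESeq2 1.42.0, limma 3.58.1, haemoglobin-free totals, other filters, fits of 6 libraries, a replicate block and leaving out each library. The tests were checked on simulated data.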

Additional observations from a re-analysis of the deposited data

Results flagged for a closer look

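Of the 21 tested glycolysis genes, 3 differed between the injection routes by a test of the difference itself, and 1 of these, Eno1, was among the 8 tested isozyme genes. All 3 were lower in scivMSC, a share below the 30.4% of all tested genes called lower in this comparison. Eno1 was lower in scivMSC than in scMSC by a log2 fold change of -1.12 (edgeR adjusted p = 0.0274). The groups did not overlap, at 3.12, 2.14 and 2.69 FPKM in scMSC and 1.65, 0.637 and 1.33 in scivMSC, but all tested genes had a median of -0.87 in this comparison, and under TMM Eno1 was at -0.25 (adjusted p = 0.275). The call was also lost in a fit of the 6 libraries alone (adjusted p = 0.0745) and without scMSC replicate 1 or 3 or scivMSC replicate 2 or 3. Of the other pathway genes, Slc2a1 was lower in scivMSC by -1.41 (edgeR adjusted p = 0.0332) and Slc2a6 by -1.31 (edgeR adjusted p = 0.0344). Under TMM they were at -0.65 (adjusted p = 0.114) and -0.39 (adjusted p = 0.355). The Slc2a1 call was lost without any 1 of the scMSC libraries or without scivMSC replicate 2 or 3, and its value was -2.16 without scivMSC replicate 1. The Slc2a6 call was lost without scMSC replicate 1 or 3 or scivMSC replicate 2.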

How the results depend on the processing

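Members called numbered 4, 5, 6, 1, 0 and 2 in DNCB versus Solvent, scMSC versus DNCB, scivMSC versus DNCB, scivMSC versus scMSC, scMSC versus Solvent and scivMSC versus Solvent. Of all tested genes, 15.6% were called higher in the first and 24.9%, 62.0% and 30.4% lower in the next 3. In the last 2, 0.651% were called and 59.2% were called lower. Under TMM 18.9% were called lower in scivMSC versus DNCB and 13.4% in scivMSC versus Solvent. A mean FPKM of at least 5, which left fewer members to test, gave 2, 2, 2, 0, 0 and 1. For scivMSC versus scMSC the count was 0 under TMM, DESeq2 size factors, haemoglobin-free totals, the DESeq2 Wald test, limma on log2(FPKM + 1) and the 6 libraries alone, and 0 to 4 with a library left out (4 without scivMSC replicate 1). For scMSC versus Solvent it was 1 with the DESeq2 Wald test and with the 6 libraries alone, and 0 to 1 with a library left out (1 without scivMSC replicate 1 or 2). The other counts were 3 to 5, 4 to 6, 5 to 7 and 2 to 3 with a library left out. Among the 48 values of the 8 tested genes over 6 comparisons, 16 had the opposite sign under TMM, 5 of them in scivMSC versus Solvent and 4 in scivMSC versus scMSC. Of the 36 values followed through every alternative, signs turned for Slc2a3 in scivMSC versus DNCB (1.04 with TMM, 1.05 with DESeq2 size factors and with DESeq2), for Hk1, and versus Solvent for Hk3, Pfkfb4 and Pkm. With TMM, DESeq2 size factors and DESeq2, Hk3 was at 0.86, 0.86 and 0.85, Pfkfb4 at 0.86, 0.87 and 0.87 and Pkm at 1.00, 1.03 and 1.03 in scivMSC versus Solvent, and Pkm was at 0.30 with each in scMSC versus Solvent. At 1.03 Pkm was called higher in scivMSC, by edgeR with DESeq2 size factors (adjusted p = 7.91e-04) and by DESeq2's Wald test (adjusted p = 1.49e-07). With a library left out, Hk3 ranged from -1.12 to 0.09 in scivMSC versus Solvent. With TMM, DESeq2 size factors, haemoglobin-free totals and DESeq2, Hk1 was at -0.04, -0.01, -0.03 and -0.01 in DNCB versus Solvent, and at 0.47, 0.43, 0.16 and 0.43 in scMSC versus DNCB. In scivMSC it was at 1.41, 1.40, 0.34 and 1.40 versus DNCB and at 1.36, 1.39, 0.31 and 1.39 versus Solvent. With a library left out it ranged from -0.05 to 0.31 in DNCB versus Solvent and from -0.33 to 0.09 in scivMSC versus Solvent. The scaling alternatives move all genes of a library together, as the medians above show. Exact permutation tests of the ratios with a pseudocount of 1 gave an adjusted p of 0.00896 for Pfkfb3 to Pfkfb4 and 0.133 for Slc2a3 to Slc2a1. With a library left out, the adjusted p ranged from 3.90e-04 to 0.0590 for Hk2 to Hk1, from 0.0206 to 0.206 for Pfkfb3 to Pfkfb4, from 0.00234 to 0.101 for Slc2a3 to Slc2a1 and from 0.0132 to 0.101 for Ldha to Ldhb, while Hk3 to Hk1 and Pkm to Pklr stayed under 0.05. Beyond the scalings, the causes were not tested.

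The replicate numbers showed no clear pairing of the mice, as 3 of 18 same-numbered pairs had a correlation of deviations over 0.1 (range -0.286 to 0.156). With 3 libraries per group this check cannot exclude a pairing. With a replicate block the members called numbered 4, 6, 6, 1, 0 and 2 in the same order, and the call gained was Pfkfb3 in scMSC versus DNCB (adjusted p = 0.0298).

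In all, 679 of 775 alternative values of single genes kept their direction and their side of the threshold, 41 lost it, 19 gained it and 36 changed sign. This total is no measure of stability, because leaving out a library of a group outside the comparison keeps the log2 fold change as it was. Of 36 values, 17 stayed the same under TMM, and likewise 17 with DESeq2 size factors and 17 with the DESeq2 Wald test. In each of these settings 9 changed sign. Depth limited Hk2 and Pklr, and Hk3 in scivMSC replicate 2 rested on 27 counts.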
